A study of Mus musculus with 2 samples.

Results

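The Atp genes of the mouse encode ion pumps, lipid flippases and the subunits of rotary enzymes that move protons. The positions of these genes were set against the binding sites of HLF in blood progenitors. HLF, hepatic leukemia factor, binds DNA as a leucine zipper protein of the PAR bZIP class. The genes were taken by name, as the protein-coding genes of the RefSeq table of GRCm38.p6 (mm10) whose symbol is Atp followed by a digit. There were 85 of these among 21900 coding genes. By family they comprised 41 P-type genes, 26 V-type genes (symbols starting Atp6), 17 mitochondrial genes (symbols starting Atp5) and Atp23, a mitochondrial peptidase that is not a subunit of these enzymes. The family was selected on the positions of the peaks in the list analysed here, so the counts of genes with a peak are a description and carry no test.

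Binding was profiled by chromatin immunoprecipitation and sequencing (ChIP-seq) in wild-type mouse LSK cells, the lineage-negative, Sca-1-positive and c-Kit-positive cells that include hematopoietic stem and progenitor cells. A pMX retrovirus delivered either 3xFLAG-tagged Hlf with GFP or GFP alone, and 80000 infected cells were kept for 5 days in medium with SCF at 50 ng/ml, IL-7 and Flt3L at 10 ng/ml each, and IL-3 at 5 ng/ml. Both arms were precipitated with the same anti-FLAG antibody. Each arm was 1 library, and only the FLAG-HLF peaks were analysed here. The protein was the virally delivered, tagged HLF and not the factor at its natural level, and the identity of the cells after culture was not measured. The list gives 3153 positions of 400 bases with no height or significance. The depth is therefore unknown, no value has a replicate, and strong and weak peaks could not be told apart.

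P-type ATPases are pumps that become phosphorylated on an aspartate during each transport cycle. They keep sodium and potassium apart across the plasma membrane, clear calcium from the cytosol, deliver copper and, in the P4 group, flip phospholipids from the outer to the inner leaflet of membranes. V-type ATPases acidify lysosomes and endosomes with a cytosolic V1 part that splits ATP and a membrane V0 part that carries protons. The mitochondrial ATP synthase runs the same kind of rotary machine in reverse and makes ATP from the proton gradient.

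Each peak was given, by its centre, to the coding gene that held it, or otherwise to the gene with the nearest end within 100 kb. By this rule 25 peaks were given to 18 of the 85 Atp genes, and 67 genes received none. The share was 21.2%, against 11.1% of all coding genes (2420 of 21900). There were 14 genes with 1 peak each and 4 (Atp8b4, Atp6v1g3, Atp8a1 and Atp10a) with 2 or more, which 2.06% of all coding genes had. A peak lay inside 9 of the 85 genes (10.6%), beside 6.73% of all coding genes. P-type genes made up most of it, with 17 peaks at 12 of 41 genes (29.3%). V-type genes had 7 peaks at 5 of 26 genes (19.2%). Mitochondrial genes had 1 peak at 1 of 17 (5.88%), and Atp23 had none. The rule counts position only: a peak far from a gene is not shown to act on that gene.

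Long genes hold more peaks, and the Atp families differ in length. The median length was 70.5 kb for P-type genes, 22.6 kb for V-type genes and 7.13 kb for mitochondrial genes, against 17.1 kb for all coding genes. Among genes of up to 10 kb, 1 of 25 Atp genes (4%) had a peak, beside 4.22% of all coding genes of that length. From 10 to 30 kb it was 4 of 23 (17.4%) beside 9.28%, and from 30 to 100 kb it was 4 of 19 (21.1%) beside 16.1%. Over 100 kb it was 9 of 18 (50%) beside 27.5%, and all 18 of these long genes were P-type. The short mitochondrial genes were thus near the share of coding genes of their own length: 1 of 15 with up to 10 kb had a peak (6.67%). Peaks inside the gene were also set against summed gene length. Atp genes held 12 peaks in 4.84 Mb, or 2.48 per Mb, and all coding genes held 1742 in 1051 Mb, or 1.66 per Mb. Most of the 12 were in P4 flippases, with 8 in 2.26 Mb, or 3.54 per Mb. V-type genes held 2 in 0.735 Mb, or 2.72 per Mb, and mitochondrial genes held 0. None of these differences was tested.

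**Figure D1:**
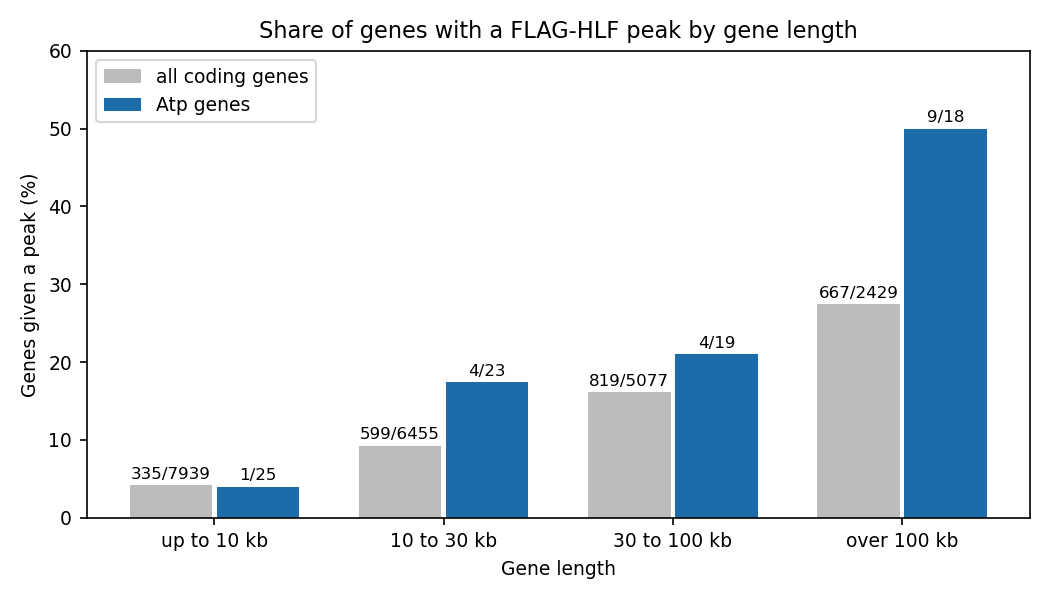
Share of genes given at least 1 FLAG-HLF peak (y axis, percent) in 4 classes of gene length (x axis), for all coding genes (grey) and Atp genes (blue), with genes given a peak over genes in the class above each bar. The Atp share was 4% in the shortest class and 50% in the longest, where all coding genes reached 27.5%.

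Sequence was at hand only as promoter windows of RefSeq genes (GRCm38.p6), from 250 bases before to 50 bases after a start, and 61 of the 85 Atp genes had at least 1, with 77 windows in all. No peak overlapped any of the 77. The windows were searched on both strands for the PAR bZIP site, spelled TTACGTAA or TTATGTAA (TTACATAA on the other strand), and for the related forms TTGCGTAA and TTGCATAA (TTACGCAA and TTATGCAA on the other strand), in which one side of the palindrome is that of a C/EBP site. The PAR letters stood in 1 Atp window (1.3%), beside 1.06% of all 32851 windows, and no further Atp window held a related form, which with the PAR letters stood in 1.94% of all windows. For scale, the PAR or related letters stood in 17.2% of the 227 windows of any gene that overlapped a peak and in 1.83% of the other 32624, so the search letters were more frequent where peaks lay. The window with a site belonged to an internal start of Atp2b2, a plasma membrane calcium pump, and held 2 sites, with first bases at positions -57 and -138 from the start. It lay 172400 bases from the closest edge of a peak. The stretches printed here are that Atp2b2 window, because it alone holds the letters, the Atp7b window, because a peak starts 85 bases beyond it, and the bases of the peak given to Atp6v1c1 that a window of the noncoding gene Gm41309 covers, because no other peak of an Atp gene could be read. Capitals mark the sites, each line runs 5′ to 3′ on the minus strand, and the promoter windows are shown up to the base before the start.
Atp2b2, chr6:113934682-113934931: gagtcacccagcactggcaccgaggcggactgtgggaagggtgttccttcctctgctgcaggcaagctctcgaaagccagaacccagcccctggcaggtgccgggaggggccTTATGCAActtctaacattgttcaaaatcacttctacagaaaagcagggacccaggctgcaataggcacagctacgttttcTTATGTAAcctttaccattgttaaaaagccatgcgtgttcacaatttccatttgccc
Atp7b, chr8:22060075-22060324: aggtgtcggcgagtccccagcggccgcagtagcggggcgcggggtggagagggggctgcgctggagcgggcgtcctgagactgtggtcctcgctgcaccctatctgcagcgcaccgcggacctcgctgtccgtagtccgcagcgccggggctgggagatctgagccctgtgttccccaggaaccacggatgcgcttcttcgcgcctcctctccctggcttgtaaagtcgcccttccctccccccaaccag
Atp6v1c1 peak, chr15:38602340-38602536: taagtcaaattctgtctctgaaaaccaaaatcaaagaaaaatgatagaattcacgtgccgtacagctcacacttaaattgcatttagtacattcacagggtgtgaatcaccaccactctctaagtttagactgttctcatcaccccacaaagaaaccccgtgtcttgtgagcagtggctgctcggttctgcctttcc

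The Atp7b stretch is 69.6% G and C and holds no site. The Atp6v1c1 peak stretch, 197 of its 400 bases, is 42.6% G and C and holds none either. No match says only that these letters are not in these bases.

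Beta subunits bring the sodium and potassium pump and the gastric proton pump to the cell surface. Of the 5 beta genes, 2 had a peak (40%), beside 11.1% of all coding genes. Atp1b1, the beta 1 subunit (chromosome 1, 164437099 to 164458355), held 1 peak (chr1:164453667-164454066) 4.49 kb downstream of its start. Atp1b3, the beta 3 subunit also known as CD298 (chromosome 9, 96332655 to 96364431), had 1 peak 11.6 kb upstream (chr9:96375832-96376231). The beta genes Atp1b2, Atp1b4 and Atp4b had none. Neither catalytic gene of the gastric and colonic H,K-ATPases, Atp4a and Atp12a, had one.

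Flippases of the P4 group carried the most peaks, 12 of the 25, at 7 of their 14 genes (50%). Of the 12 flippase genes over 100 kb, 7 had a peak (58.3%), beside 27.5% of all coding genes of that length. Neither of the 2 shorter ones, Atp8b2 and Atp8b3, had one. Of the 6 other P-type genes over 100 kb, 2 had one. The flippase with the most peaks was Atp8b4 (chromosome 2, 126320973 to 126500669), with 4. Of these, 2 lay inside the gene (chr2:126387624-126388023 and chr2:126458746-126459145), 66.9 and 41.7 kb from its ends. The other 2 (chr2:126514953-126515352 and chr2:126520233-126520632) lay 14.5 and 19.8 kb upstream of the gene's upper end, 5.28 kb apart, with the next coding gene, Slc27a2, 37.9 and 32.6 kb off. Only 97 of all coding genes (0.443%) were given 3 or more peaks.

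Atp8a1, a flippase for phosphatidylserine (chromosome 5, 67618139 to 67847484), held 2 peaks 1.68 kb apart, 25.2 and 23.5 kb from its upper end (chr5:67822065-67822464 and chr5:67823745-67824144). These were the closest neighbours among the Atp peaks. Atp10a, a flippase for phosphatidylcholine (chromosome 7, 58656142 to 58830244), held 2 at 30.6 and 60.6 kb from its lower end (chr7:58686588-58686987 and chr7:58716590-58716989). The next coding gene, Ube3a, was 542 and 512 kb from them. Atp11a, which flips phosphatidylserine at the plasma membrane, held 1 peak deep inside, 40.3 kb from an end (chr8:12828265-12828664). Atp8b5 held 1 at 20.7 kb from its lower end (chr4:43287226-43287625). The peaks of the other 2 flippases lay far outside. That of Atp8a2, a flippase of neurons, was 42.9 kb above its upper end (chr14:60129578-60129977), and that of Atp11b, a flippase of endosomes, was 65.9 kb upstream (chr3:35687976-35688375). Flippases without a peak included Atp8b1, Atp9a, Atp9b and Atp10b.

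Calcium pumps had 1 peak among 9 genes (11.1%), and 11.1% of all coding genes had one. Atp2b2, a plasma membrane pump best known from hair cells and neurons, held it 18.3 kb from its lower end, which is its downstream end (chr6:113761883-113762282), 129 kb from the closest of its 3 listed starts. The other plasma membrane pumps, Atp2b1, Atp2b3 and Atp2b4, had none within the limit. Atp2b1 fell outside the rule: peaks at 136 and 189 kb (chr10:98778297-98778696 and chr10:98725157-98725556) had it as their nearest gene end but lay beyond 100 kb. The farthest peaks that were given to an Atp gene from outside were those of Atp11b at 65.9 kb and Atp6v1c1 at 59.4 kb. Another peak, 96.7 kb from Atp2b1, went to Poc1b. The 3 SERCA pumps that fill the endoplasmic reticulum with calcium had none. For Atp2a3, the form known from blood cells, the nearest peak was 31.5 kb away and was given to Camkk1. The Golgi pumps Atp2c1 and Atp2c2 had none, and neither did the 5 Atp13a genes, which include the lysosomal polyamine exporter Atp13a2.

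The copper pumps differed in how the rule placed them. Atp7a, the copper exporter mutated in Menkes disease (chromosome X, 106027224 to 106128161), had 1 peak 6.89 kb downstream of its end (chrX:106134855-106135254), and Tlr13, an endosomal receptor for bacterial RNA, had an end 8.22 kb from the same peak. It was the only one of 6 Atp genes on X with a peak, and on X 2.38% of all coding genes had one. Atp7b, mutated in Wilson disease (chromosome 8, 21992783 to 22060074), received none, although a peak (chr8:22060409-22060808) was centred 0.534 kb from its start. That peak spans the lower end of Alg11, a gene of protein glycosylation. The 2 genes lie 646 bases apart, and the centre was 0.113 kb from Alg11, so the rule gave it there. This was the closest peak to any of the 67 genes without one.

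The V1 part of the V-type ATPase had 6 of the 7 V-type peaks, at 4 of 14 genes (28.6%). The V0 part had 1 at 1 of 9 genes (11.1%), and the share of all coding genes was 11.1%. Atp6v1a, the catalytic A subunit (chromosome 16, 44085402 to 44139702), held 1 peak 2.48 kb inside its lower, downstream end and 51.4 kb from its start (chr16:44087686-44088085). Atp6v1b2, the B subunit of most tissues (chromosome 8, 69088736 to 69113718), held 1 at 2.47 kb inside its lower end (chr8:69091008-69091407), where the end of Slc18a1, a vesicular monoamine transporter, was nearer, at 1.97 kb. The A and B subunits together form the ATP-splitting ring. Atp6v1c1, a subunit of the stalk, had 1 peak 59.4 kb below its lower end (chr15:38602340-38602739). Atp6v0d2, a V0 subunit known from osteoclasts and macrophages, had 1 peak 8.34 kb below its lower end (chr4:19868297-19868696).

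Atp6v1g3, a stalk subunit known from the kidney (chromosome 1, 138273738 to 138289462), had 3 peaks, the most of any V-type gene. None was inside it. They lay 36.3 and 2.08 kb upstream and 33.3 kb downstream (chr1:138237245-138237644, chr1:138271464-138271863 and chr1:138322601-138323000). The next coding gene for all 3 was Ptprc, which encodes the blood cell antigen CD45, at 61.7, 95.9 and 147 kb. V-type genes without a peak included the broadly used Atp6v1h, Atp6v1d, Atp6v1e1, Atp6v0c and Atp6v0d1 and the 3 accessory genes Atp6ap1, Atp6ap1l and Atp6ap2. Among the 21 without one, the nearest peak was 3.33 kb away at Atp6v1g1 and a median of 75.1 kb away.

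Of the 17 mitochondrial genes, Atp5l, subunit g of the membrane part (chromosome 9, 44913248 to 44920742), was alone in having a peak, 8.97 kb downstream of its end (chr9:44904084-44904483). The catalytic and rotor genes Atp5a1, Atp5b, Atp5c1, Atp5d and Atp5e and the proton ring genes Atp5g1, Atp5g2 and Atp5g3 had none. In 10 of the 16 without a peak, one lay within 100 kb but was given to another gene. The closest of these were 5.88 kb from Atp5d, given to Midn, and 8.19 kb from Atp5g1, given to Ube2z.

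**Figure D2:**
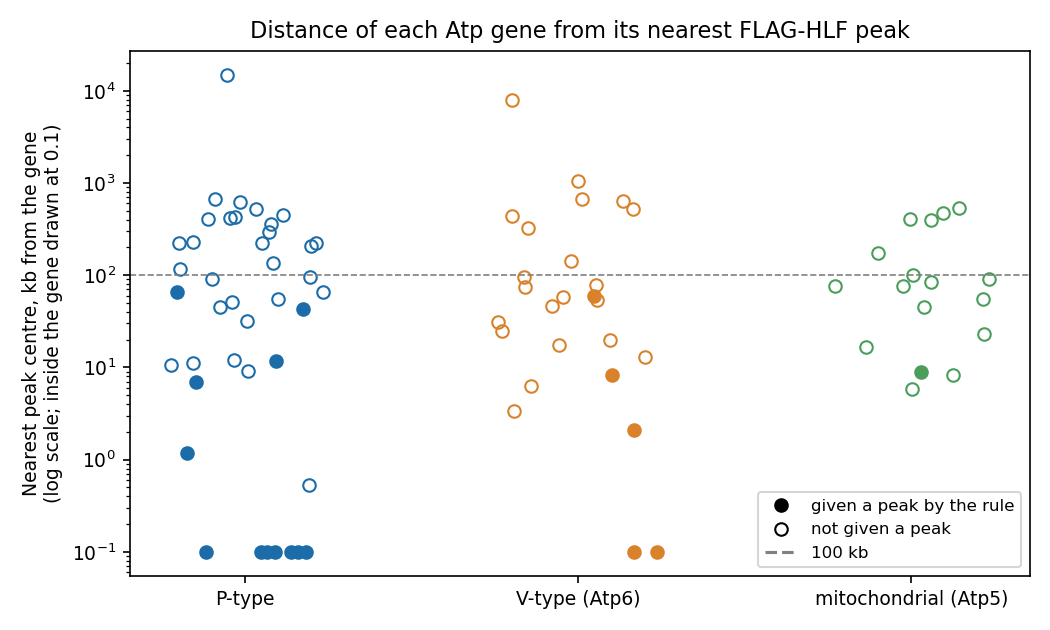
Distance from each P-type, V-type and mitochondrial gene to its nearest FLAG-HLF peak centre (y axis, kb, log scale, genes holding a peak drawn at 0.1), with filled points for genes given a peak and open points for the rest. Open points below the 100 kb line are genes whose nearest peak went to another gene, the lowest being Atp7b at 0.534 kb.

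The positions of the Atp peaks relative to gene ends were set beside those of all assigned peaks. Of the 25, 12 (48%) were inside their gene and 13 outside, beside 58.2% inside for all 2994 assigned peaks. The 13 outside comprised 6 upstream and 3 downstream of genes whose strand was known, and 4 at genes whose strand was not used here. The median distance to the nearest end of the gene was 20.7 kb, with the farthest at 66.9 kb, and that of all assigned peaks was 12.8 kb. Gene length was not taken into account in these medians, and the difference was not tested. Of the 25 peaks, 12 were at P4 flippases, a group with a median gene length of 153 kb. No Atp peak lay within 1 kb of an end (0 of 25), beside 11.2% of all assigned peaks. A count of 0 in 25 allows a share of up to 12% by counting error, if the peaks are taken as independent. Several of the 25 shared a gene, and this difference was not tested. Within 5 kb there were 5 (20%), among them those of Atp1b1, Atp6v1a and Atp6v1b2 and 1 of Atp6v1g3, beside 30.4% of all assigned peaks. No Atp peak was inside a second coding gene. When noncoding genes competed for peaks, 16 of the 25 stayed with the Atp gene and 12 Atp genes kept a peak (14.1%, beside 8.78% of all coding genes). Atp11a, Atp11b, Atp1b3, Atp5l, Atp6v1c1 and Atp8a2 then had none. Atp8b4 lost its upstream peaks, and Atp10a lost the peak farther from its lower end.

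**Figure D3:**
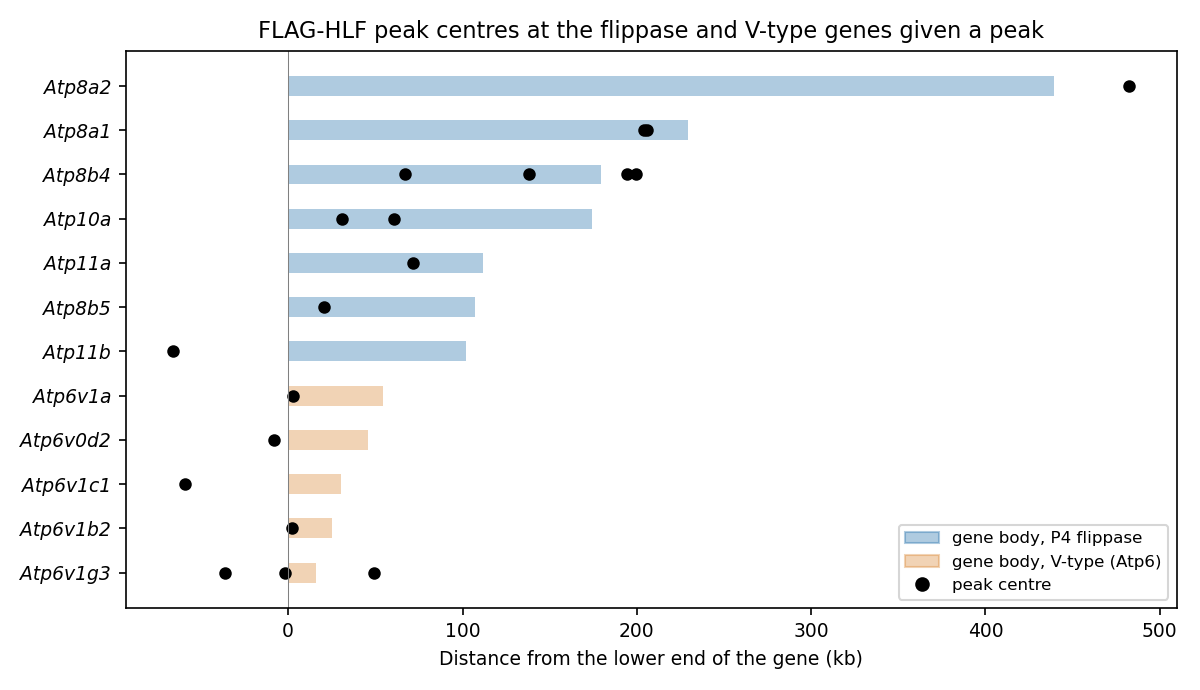
The 7 P4 flippase genes and the 5 V-type genes with a peak drawn to scale from their lower ends (x axis, kb), with bars for gene bodies coloured by family and black points for peak centres. Points on the bars are peaks inside genes, 8 in flippase and 2 in V-type genes, and Atp8b4 and Atp6v1g3 carry 4 and 3 points.

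**Figure D4:**
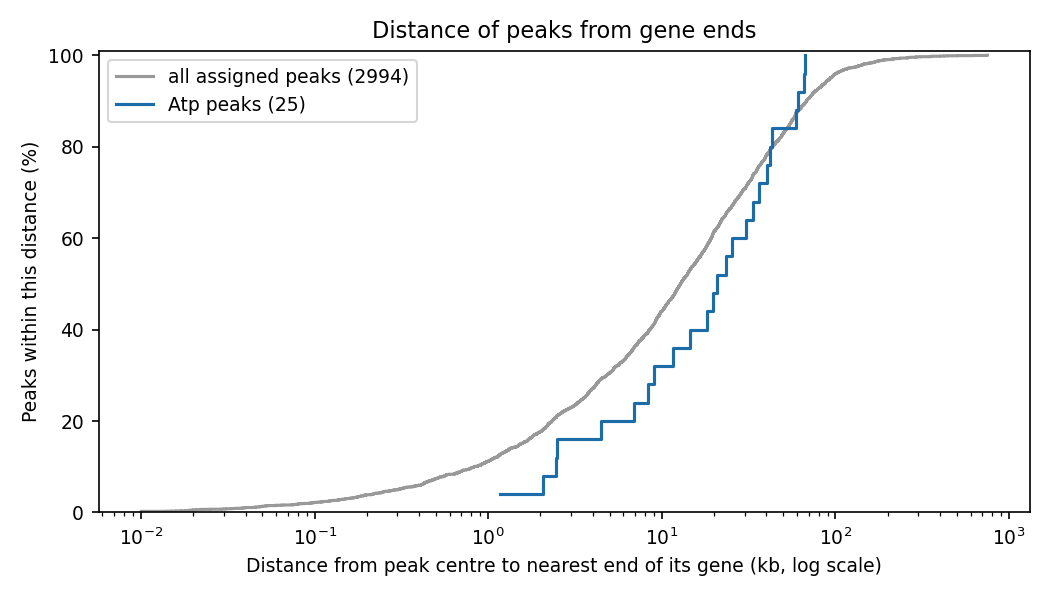
Cumulative share of peaks (y axis, percent) by distance between a peak centre and the closer end of its gene (x axis, kb, log scale), for the 25 Atp peaks (blue) and all 2994 assigned peaks (grey). The median is 20.7 kb for the blue line and 12.8 kb for the grey line, and no blue step lies within 1 kb.

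Genes that work with these pumps but carry other names were looked at as a list of 42, and 9 (21.4%) had a peak, beside the 11.1% of all coding genes. All 9 held a peak inside. Of 11 genes of the calcium store, 5 had one: the release channels Itpr1, Itpr2 and Ryr1 and the store sensors Stim1 and Stim2, while the Orai channels had none. These 5 genes are all over 100 kb long, from 122 kb for Ryr1 to 394 kb for Itpr2. Of all coding genes over 100 kb, 27.5% had a peak, and the list of 42 was not matched for length. Of 10 partners of the V-type ATPase, 3 had a peak: Rogdi, at 0.437 kb from an end (chr16:5012938-5013337), and Dmxl1 and Dmxl2, which take part in joining V1 to V0. Dmxl1 and Dmxl2 are also over 100 kb long, at 133 and 137 kb. Of 4 copper transport genes, Slc31a2 had 2 peaks, 1 inside and 1 at 23.3 kb. The 7 Fxyd genes, small regulators of the Na,K-ATPase, had none. Nor did Pln, Sln and Strit1, which regulate SERCA, the 3 Tmem30 genes, whose products most flippases need, or the 4 partners of ATP synthase.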

How the data were processed

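ChIP-seq of anti-FLAG precipitates was done on 2 libraries of mouse LSK cells, FLAG-HLF and GFP control, with 1 library per arm. Only the FLAG-HLF peak list was analysed. Chromatin was crosslinked with 1% formaldehyde and sheared in 4 sonication cycles, per the labels' protocols. Bowtie2, bedtools, MACS2 and mm10 (GRCm38) are named without role or version, per the submitters' processing notes. The peak threshold, the filters and the use of the GFP library are, for this list, not given in the sources used here. Positions only were deposited by the authors, in 3 columns, with every peak 400 bases wide.

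Peak centres (start plus 200 in the deposited file) were set against gene bounds of GRCm38.p6, 49997 genes with 21900 coding. Among several holding genes the nearest end decided. Of 3153 peaks, 2994 were assigned and 159 were not. Coordinates count from 1. Strand came from RefSeq promoter windows, and a gene's lower end has the smaller coordinate. The assignment was tested on simulated positions. No test was run, since there is 1 list. The members, the partner list and the length classes were chosen with earlier results of these data known. Atp genes with a peak are named, and others in groups by family. Some Atp genes enter the counts but are not reported here by name. Python 3.11.15, numpy 2.4.6, pandas 2.3.3 and matplotlib 3.10.9 were used.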

Additional observations from a re-analysis of the deposited data

How the results depend on the processing

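Of 67 alternative values for 9 results, 55 stayed within 1.5 times the value reported. Counting only peaks inside the gene left 9 Atp genes (7 P-type, 2 V-type and 0 mitochondrial) and 12 peaks, beside 6.73% of all coding genes holding a peak. With noncoding genes competing, 16 peaks and 0 mitochondrial genes remained. By nearest transcription start, the V-type count was 3, the mitochondrial count 2 and the count over 100 kb 5. That setting gave 15 Atp genes in all (17.6%, beside 9.36% of all coding genes), of which 9 were among the 18. It gained 6, among them Atp7b and Atp5o, and lost 9, of which 5 had no promoter window. Within 2 kb of a gene end there was 1 Atp peak, and within 5 kb there were 5. A limit of 50 kb left 16 Atp genes (18.8%, beside 10.6% of all coding genes). A limit of 20 kb left 15 (17.6%, beside 9.68%), and no limit gave 19 (22.4%, beside 11.4%). The alternatives for genes over 100 kb were chosen after seeing the data. A stricter peak threshold was not run because the list has no score. No paired analysis was possible because each arm is 1 library and 1 list was analysed.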
